A study of Mus musculus with 89 samples.

Results

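Apoe was described in 89 tissue segments of mouse squamous cell carcinoma, as 1 of the 19962 targets measured. It was chosen because it was much lower at the tumour interface than in the stroma of the untreated slide, so that difference is given here as a description without a test. Tags hybridised to RNA on fresh frozen sections were released by ultraviolet light from each stained region and sequenced, and each tag carries the name of its target. All segments were marked as neutrophil regions of the tumour microenvironment, and the study asks how neutrophils in different tumour regions respond to immunotherapy.

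The segments formed 7 classes by slide and location. The naive slide held 42 segments before treatment, with 15 in stroma, 13 at the interface and 14 within the tumour. The acute slide held 9 stroma and 2 interface segments, and the relapse slide 14 stroma and 22 interface segments; both are annotated as post-treatment. The sources used here do not name the agent, its dose, the time since treatment, or the strain, age and number of animals. The scan name of the naive slide includes HRass and that of the relapse slide includes DMBA, a chemical carcinogen, so the slides may also differ in tumour model. Each stage was on 1 slide, so stage, slide and tumour model cannot be told apart, and only the naive slide had within-tumour segments. Segments share slides, and the sources used here do not say which of them share a tumour or an animal. Every p-value over segments given here therefore does not measure the spread between animals. Such p-values can be too small, above all between slides.

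Apoe encodes apolipoprotein E, a secreted protein that carries cholesterol and other lipids between cells. Macrophages are a known source of it outside the liver; ABCA1 loads lipid onto it, cells take it up through surface receptors, and the oxysterol-sensing LXR receptors induce its gene. In RefSeq's GRCm38.p6 table the gene (11816) lies at chr7:19696244-19701310, in a cluster with Apoc1, Apoc4 and Apoc2. The sources used here do not say which part of the transcript the tag binds.

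Deposited values were turned back into tag counts by multiplying them by each segment's scaling factor. The lowest possible count is 1, the floor, and levels are given below as counts above the floor per 10000 such counts of the segment, called the share. Total counts above the floor ranged from 573 to 208675 per segment, with a median of 7216. A value exceeded the limit of quantitation when the count was above both 2 and the segment's negative-probe background (geometric mean times its geometric SD to the power 2). Apoe exceeded it in 54 of 89 segments and was at the floor in 27. Its share did not follow depth over the segments (r = -0.03, n = 89). Intervals given for single segments are exact 95% limits for counting error only.

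Defining neutrophil markers were seldom above the limit, so their transcripts do little to bear out the neutrophil label. Ly6g, a surface protein of mouse neutrophils, exceeded the limit in 6 segments, Elane, the granule elastase, in 3, and Ltf, lactoferrin of secondary granules, in 0. The alarmins S100a8 and S100a9, which keratinocytes and monocytes can also make, exceeded it in 44 and 38. Apart from these 2, no marker on the list exceeded it in more than 8 segments, the number for Camp. Of the 15 neutrophil markers, 2 were above the limit in at least 10% of segments, as were 25.5% of all targets. Low counts of marker transcripts do not show that neutrophils were absent. The regions are therefore named below by their class, and a lower share of Apoe in a region cannot be told apart from fewer cells that make it.

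Naive stroma had the highest median share of Apoe. Its 15 segments ran from 0.955 to 114 per 10000, with a median of 41.6, and all 15 exceeded the limit of quantitation. In counts these were 3 to 742 with a median of 38. The level was above background in every segment of this class, but 2 segments lay far below the other 13, which began at 14.4.

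At the naive interface the median share was 0.332, and 4 of 13 segments exceeded the limit. Counts there ranged from 1 to 75 with a median of 2, and 6 segments were at the floor. Of these 13 segments, 12 lay between 0 and 2.16 per 10000 and the other stood at 120 (interval 94.1 to 150), above every naive stroma segment. For the 6 segments at the floor, the limit that a count of 0 allows (3 counts of the segment's total) ran from 1.34 to 5.14 per 10000.

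Within the naive tumour the share was as low, with a median of 0.257 and 4 of 14 segments above the limit. Again 1 segment stood apart, at 540 per 10000 (interval 394 to 721) from 44 counts in a region of 6 nuclei with only 796 counts above the floor. The other 13 segments were at or below 13.8. Pooled over segments, the share was 40.9 in stroma, 3.21 at the interface and 4.90 within the tumour. Without the highest segment of each class these became 40.4, 0.850 and 1.34, so 1 segment set most of the pooled level outside stroma.

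On the acute slide every segment exceeded the limit. The 9 stroma segments ran from 2.83 to 36.02 with a median of 9.17, and the 2 interface segments were at 27.98 and 29.8 per 10000. Both lay close to the lowest of the 3 highest stroma segments (28.4, 33.1 and 36.02, all in 1 part of the slide) and above the other 6, which ended at 13.6.

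Relapse segments were shallow and mixed. The 14 stroma segments ran from 0 to 128 with a median of 3.26, and 7 exceeded the limit. The 22 interface segments ran from 0 to 37.4 with a median of 6.19, and 13 exceeded it. Counts were small in both, at 1 to 88 in stroma and 1 to 12 at the interface, and 6 and 8 segments were at the floor. In the deepest such interface segment the limit that a count of 0 allows was 3.59 per 10000 and in the shallowest 52.4, which is above the median share of naive stroma.

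Ordered by median share, the classes were naive stroma, acute interface, acute stroma, relapse interface, relapse stroma, naive interface and naive within tumour. The ranges of every pair of classes overlapped. In this order 3 classes kept their place by deposited value and 4 by recovered count, with naive stroma taking the second and the third place, respectively, behind acute classes. When counts were thinned to 1000 per segment, Apoe had a count in 13 of 15 naive stroma, 2 of 13 naive interface and 2 of 13 naive within-tumour segments, and in 8 of 9 acute stroma, 2 of 2 acute interface, 8 of 14 relapse stroma and 9 of 20 relapse interface segments. Thinning left out 1 naive within-tumour and 2 relapse interface segments that were shallower.

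**Figure D1:**
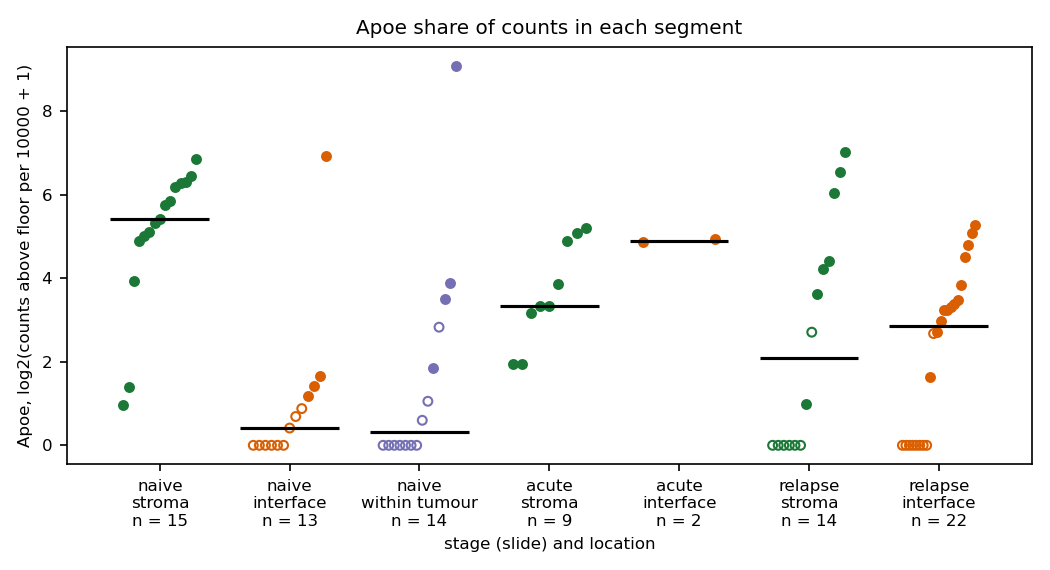
Apoe share in each of the 89 segments, on a log2(share per 10000 + 1) scale, by class; filled points exceeded the limit of quantitation, open points did not, and bars are class medians. Naive stroma sits highest except for 2 low segments, while the naive interface and within-tumour classes sit near 0 except for 1 high segment each, at 120 and 540 per 10000.

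The spread of Apoe on the naive slide ran along position as well as location. Regions were grouped by position, joining any within 5000 slide units of another, into 6 groups on the naive, 6 on the acute and 5 on the relapse slide. This grouping was chosen after the Apoe values had been seen, and the sources used here do not say whether a group is 1 tumour or 1 section. In naive groups 2 and 5 the share was 2.16 or less in all 23 segments, whatever their location. In the other 4 naive groups it ran from 2.59 to 540 over 19 segments, with a median of 41.6.

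Location and position were nearly confounded on that slide. Groups 2 and 5 held 12 of the 13 interface segments, and the other groups held 13 of the 15 stroma segments. The 2 stroma segments inside group 5 had shares of 0.955 and 1.62, against 0 to 2.16 (median 0.306) in the 8 interface segments beside them. The 1 interface segment outside these groups, in group 1, was at 120, against 28.8, 72.1 and 76.7 in the 3 stroma segments there. The stroma segments of group 5 thus lay above the interface median but inside the interface range, and in group 1 the single interface segment lay above the stroma; each set holds few segments. Location and position group cannot be told apart for the slide-wide difference.

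By position group, which was drawn after the Apoe values had been seen, the within-tumour segments differed too. They were at 0 in both segments of group 2 and at 0 to 1.08 in the 7 of group 5, and at 10.4, 13.8 and 540 in group 1, 6.10 in group 4 and 2.59 in group 6. In groups 1 and 4 all within-tumour segments but the highest lay below the stroma of the same group, which began at 28.8 and 31.2. Those at 10.4, 13.8 and 6.10 had counts of only 3, 3 and 2. Their intervals reached 37.6, 49.6 and 33.9, above where the stroma began, so counting error can account for this order. The group 4 segment did not exceed the limit of quantitation.

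**Figure D2:**
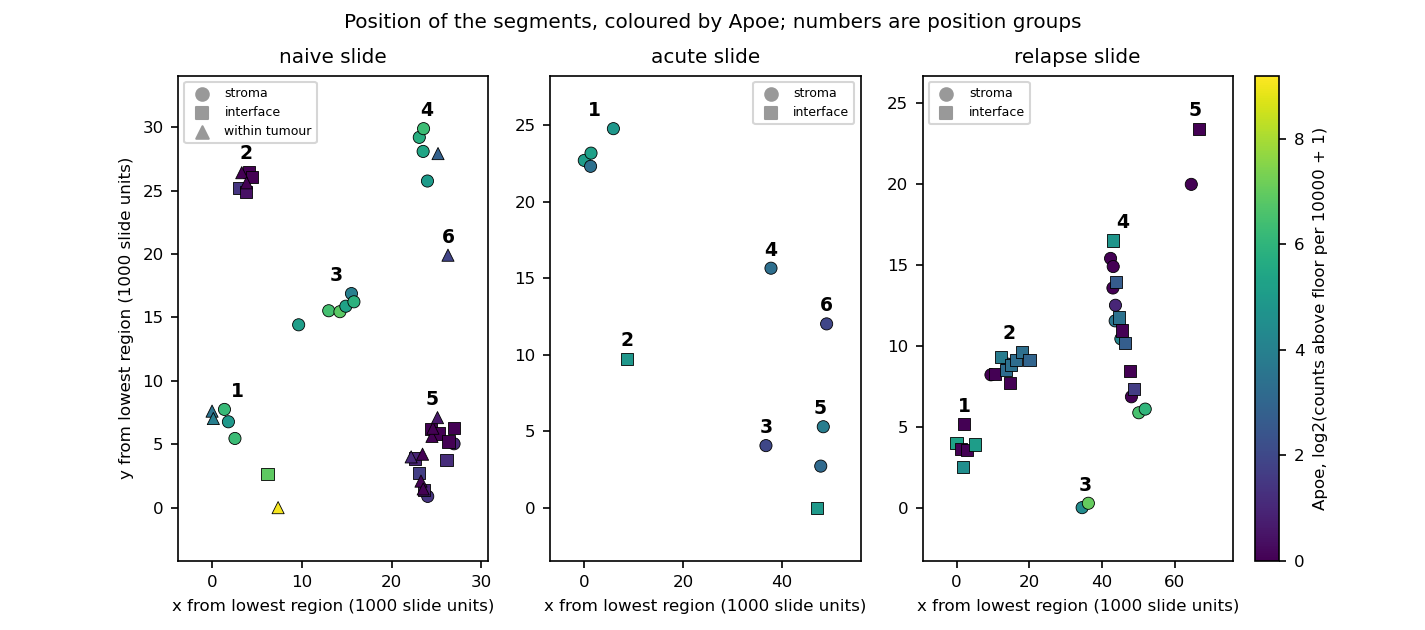
Position of each segment on its slide, in units of 1000 slide units from the lowest region, coloured by Apoe on the log2(share per 10000 + 1) scale; shapes give the location and numbers the position group. On the naive slide groups 2 and 5 are dark in every location (2.16 or less), and the other groups are lighter.

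**Figure D3:**
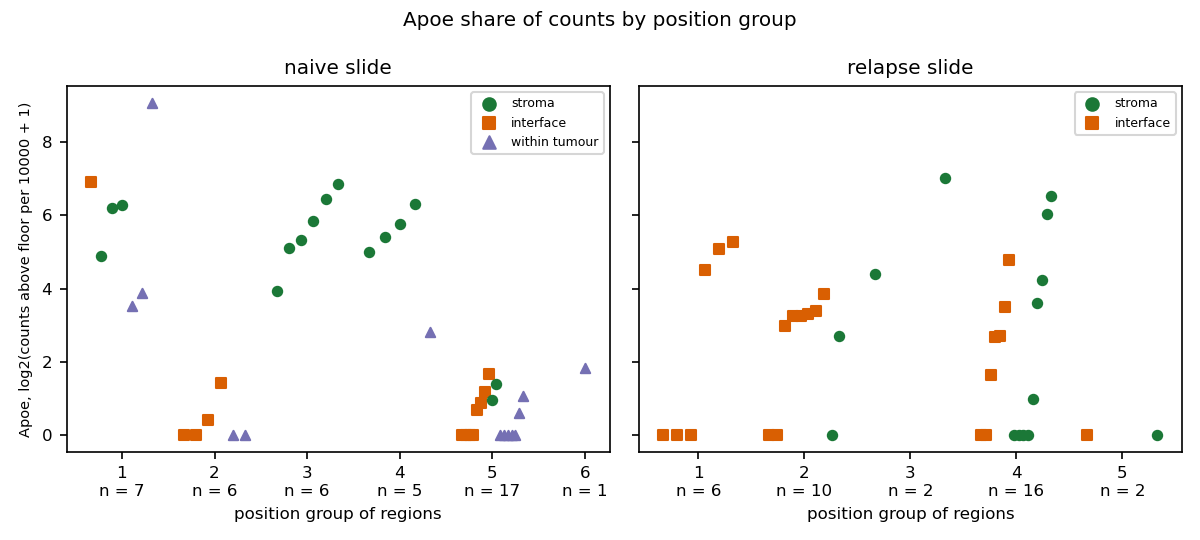
Apoe on the log2(share per 10000 + 1) scale for each segment of the naive and relapse slides by position group, with shape and colour for location. In naive group 5 stroma and interface lie together near 0, in naive group 1 the interface segment lies above the stroma, and in relapse group 4 the locations overlap, with 2 stroma segments (64.2 and 92.0 per 10000) above every interface segment.

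Over all 5087 targets above the limit in at least 10% of segments, limma was fitted to log2(deposited value + 1) with 1 mean per class. For the contrast by which Apoe was chosen, naive interface minus stroma, the fitted difference was -3.98 (SE 0.49), from class means of 2.56 and 6.54 on this log2 scale, the lowest of all 5087 targets. In this contrast 10.5% of targets were called lower and 0.531% higher. Naive within tumour minus stroma was -3.67 (SE 0.48), and within tumour minus interface was 0.31 (SE 0.50). Among stroma classes, relapse minus naive was -2.64 (SE 0.48) and acute minus naive was -1.27 (SE 0.54). At the interface, relapse minus naive was 1.01 (SE 0.45). These use the naive classes that led to the choice of Apoe and have no test. A count at the floor has a deposited value of 0.288 in the deepest segment and 3.74 in shallow ones. The lowest deposited Apoe value was thus 3.74 at the relapse interface and 1.25 at the naive interface. The part of this in fitted differences between classes of unlike depth was not tested in these contrasts.

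In relapse, where the choice of Apoe used no value, the interface and stroma did not differ beyond their spread. The fitted log2 difference, interface minus stroma, was -0.33 (SE 0.44, 95% interval -1.20 to 0.54, limma adjusted p = 1), from means of 3.57 and 3.90. A two-sided permutation test on the log2 share gave -0.26 (22 against 14 segments, p = 0.736, adjusted p = 0.736 over 3 comparisons). Without position group 3, which held stroma segments at 20.2 and 128, the fitted difference turned to 0.14. No target was called in this comparison (0%), with 131 at an unadjusted p under 0.05 in limma; leaving out group 5, or scaling to the same total, gave 1 call. In simulated data most moderate changes at the relapse interface were not called, so the lack of calls does not show that levels were alike. Within group 4 alone, which held both locations, the log2 share differed by -0.19 (7 against 9 segments, exact permutation p = 0.882).

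In the acute slide Apoe was higher in the 2 interface segments on average, and this did not pass the test. The fitted log2 difference was 1.83 (SE 1.01, interval -0.15 to 3.82, limma adjusted p = 0.595), with 0.059% of targets called. The exact two-sided permutation test gave a log2 share difference of 1.26 (2 against 9 segments, p = 0.327, adjusted p = 0.491). With 2 interface segments it has few arrangements and little power. Plate, the collection plate named in the segment names, moved with it: both interface segments were on plate H, and on that plate alone the difference was 2.05 (2 against 5 segments, exact permutation p = 0.0952). The difference of the 2 location effects, acute minus relapse, was 2.16 (SE 1.10, limma adjusted p = 0.579).

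Apoe in stroma was 1.37 higher in acute than in relapse on the fitted log2 scale (SE 0.55, interval 0.29 to 2.46), which missed the threshold (limma adjusted p = 0.16). The exact permutation test gave 1.10 on the log2 share (9 against 14 segments, p = 0.266, adjusted p = 0.491). Thinned to 1000 counts per segment the difference was 0.10. That fit used log2(thinned count + 1), with median Apoe counts of 2 in acute and 1 in relapse stroma. Its scale differs from that of 1.37, so the 2 sizes cannot be compared directly. On plate H alone the log2 share differed by 0.31 (5 against 14 segments, exact permutation p = 0.792). In this comparison 1.53% of targets were called, 33 (0.649%) higher and 45 (0.885%) lower in acute stroma. The stage means pool segments of different depth, with medians of 64652 counts in acute and 3964 in relapse stroma.

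The spread within relapse stroma was carried by few segments. Its highest 3, at 64.2, 92.0 and 128 per 10000, lay in groups 3 and 4, and the other 11 had a median of 0 and a maximum of 20.2. In these 3 the summed share of the 12 macrophage markers was 45.5 to 91.3, against 0 to 13.7 in the other 11. The summed share of the 10 fibroblast markers was 145 to 429 in them and 6.37 to 73.05 in the others. The summed neutrophil markers overlapped, at 0 to 18.7 and 2.69 to 12.6. Only 2 of those 15 markers were above the limit in at least 10% of segments, so that sum says little about neutrophils. The part of other cell types in the Apoe level was not tested.

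Targets that followed Apoe over the 89 segments were ranked by Pearson's r of the log2 share, among 765 targets above the limit in at least 25% of segments. Segments share slides, position groups and depth, so r is a description. Over the 765 targets r had a median of -0.03 and a 5th to 95th percentile range of -0.35 to 0.49. The 10 highest ranged from 0.660 to 0.803.

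The highest r was that of Fth1, the ferritin heavy chain that stores iron, at 0.803. Ctss, the lysosomal cysteine protease cathepsin S of antigen-presenting cells, followed at 0.782, and Psap, the precursor of the saposins that help break down sphingolipids in lysosomes, stood at 0.751. C1qb, a chain of complement C1q made by macrophages, was at 0.671. Ctss and Psap are on the list of lipid-laden macrophage genes and C1qb on that of macrophage markers.

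B2m, the light chain of MHC class I, had an r of 0.758 and H2-D1, a class I heavy chain, one of 0.727. The matrix genes were Col3a1 at 0.690 and Col1a1 at 0.678, which encode fibrillar collagens, Sparc at 0.673, a collagen-binding matrix protein, and Dcn at 0.660, the proteoglycan decorin. Col3a1, Col1a1 and Dcn are on the fibroblast list.

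These genes shared the class pattern of Apoe in part, with lower medians at the naive interface than in naive stroma in all 10. They were picked for following Apoe over these same segments, so this shared pattern is no separate support. Median shares of Fth1 were 11.96 in naive stroma, 0.306 at the naive interface, 8.36 in acute stroma, 13.6 at the acute interface, 1.63 in relapse stroma and 0 at the relapse interface. Those of Ctss were 3.19, 0, 2.70, 5.26, 0.794 and 0 in the same order. By median both departed from Apoe in relapse, where the Apoe median was higher at the interface than in stroma. The pooled share of Apoe had the other order, at 6.99 at the relapse interface and 18.9 in relapse stroma. The relapse medians of Fth1 and Ctss lay below the median limit that a count of 0 allows (7.57 in stroma and 8.49 at the interface). Col1a1 had the median order of Apoe in relapse, with medians of 21.6 at the interface and 8.40 in stroma. None of the 10 was called between relapse interface and stroma, where 0% of all targets were. Between acute and relapse stroma, where 0.649% of all targets were called higher in acute, 1 of the 10 was: Sparc, by 1.41 (SE 0.39, limma adjusted p = 0.0345).

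With class means removed, the order changed most for matrix genes. Fth1, Ctss, Psap, B2m and H2-D1 were then the first 5, at 0.667 to 0.737, with C1qb the sixth and Col1a1 the seventh, while Col3a1, Sparc and Dcn fell to ranks 14, 18 and 19. Without the naive slide, whose values led to the choice of Apoe, 8 of the 10 stayed among the highest 10, led by Fth1 at 0.714 and Ctss at 0.704. By slide, r for Fth1 was 0.889 in naive, 0.915 in acute and 0.656 in relapse. In the 14 within-tumour segments Ctss had an r of 0.830 but Col3a1 0.003, Sparc -0.290 and Dcn -0.224.

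The 5 targets with the lowest r were Sesn3 at -0.536, a stress-induced sestrin, and the predicted genes Gm10413 at -0.479, Gm52520 at -0.463, Gm20792 at -0.460 and Gm29758 at -0.454. Median shares of Sesn3 were 4.79 in naive stroma, 21.1 at the naive interface and 28.7 within the tumour. This is the reverse of Apoe's order there, which the choice of Sesn3 for its low r favours. Its r without the naive slide was -0.295. The r of Sesn3 with depth was -0.303 and that of Gm52520 -0.522, whereas Apoe's was -0.03, and the part of depth in these values was not tested.

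**Figure D4:**
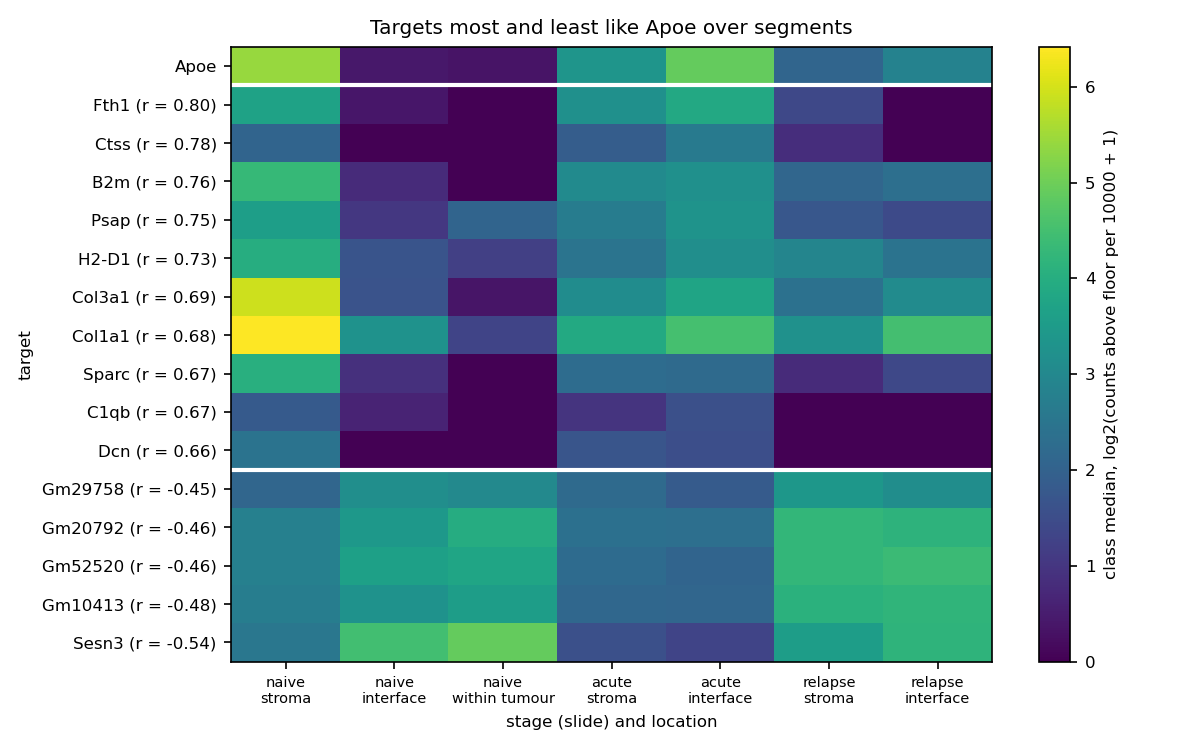
Class medians, as log2(counts above floor per 10000 + 1), of Apoe, the 10 targets with the highest r and the 5 with the lowest r over segments. The 10 upper targets are brighter in naive stroma than at the naive interface, and the lowest 5 are darker in naive stroma than at the naive interface; shades compare classes within a row, not targets.

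The marker lists differed in how closely they followed Apoe. The summed share of the macrophage markers had an r of 0.717 with Apoe and that of the fibroblast markers 0.672, against -0.002 for the neutrophil markers and 0.107 for the keratinocyte markers. With class means removed these were 0.676, 0.557, -0.048 and 0.414, and without the naive slide 0.623, 0.685, -0.052 and -0.193, so the keratinocyte value changed sign. Of the neutrophil markers, 2 of 15 were above the limit in at least 10% of segments. An r near 0 for their sum thus does not tell whether Apoe follows neutrophils. The remaining cell lists, in the order endothelial, adipocyte, muscle, T cell, dendritic and erythroid, had an r of 0.120, 0.007, 0.007, -0.160, -0.145 and 0.001.

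The summed macrophage markers also differed in median between the naive position groups set apart by their Apoe values, though their ranges overlapped. They were 0 to 8.57 per 10000 (median 5.28) in groups 2 and 5 and 0 to 163 (median 22.4) in the others. The fibroblast sum was 4.16 to 25.2 (median 13.3) in groups 2 and 5 and 0 to 347 (median 163) in the others. In the same order, medians were 13.2 and 65.5 for the lipid-laden macrophage sum and 10.3 and 18.5 for the keratinocyte sum. The neutrophil sums had medians of 7.56 and 6.70. With 2 of 15 neutrophil markers above the limit in at least 10% of segments, that sum says little about neutrophils. In the within-tumour segment where Apoe stood at 540 the macrophage sum was 163 and the fibroblast sum 0. The part of these cell types in the Apoe differences was not tested.

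**Figure D5:**
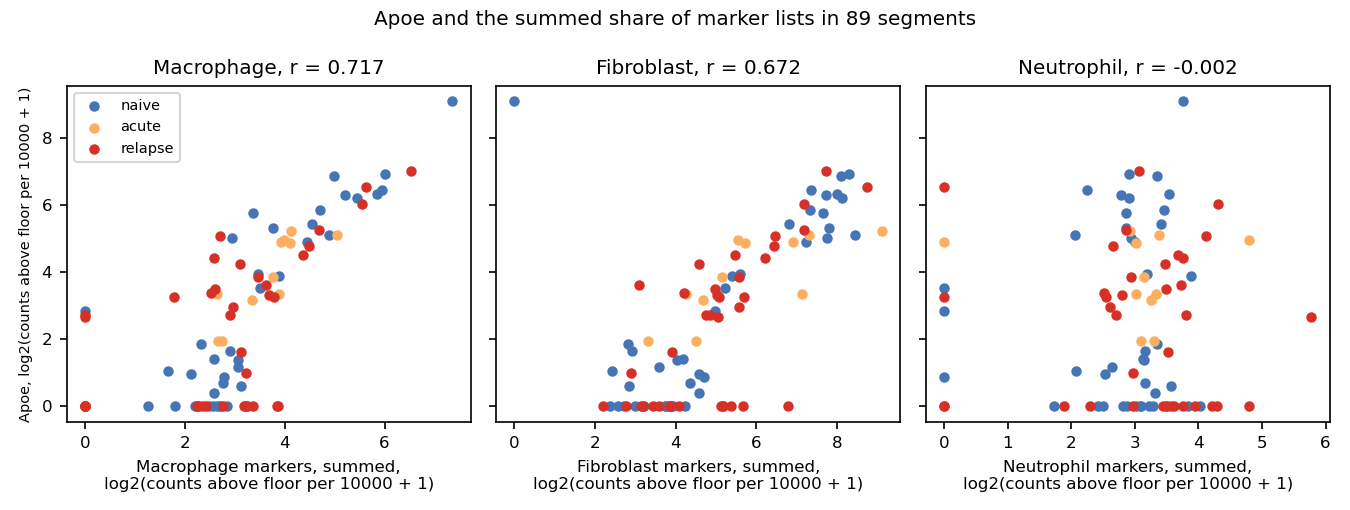
Apoe against the summed share of macrophage, fibroblast and neutrophil markers in 89 segments, all on the log2(share per 10000 + 1) scale and coloured by slide. Apoe rises with the first 2 sums (r = 0.717 and 0.672) and shows no trend with the neutrophil sum (r = -0.002). Of the 15 neutrophil markers 2 were above the limit in at least 10% of segments, so that sum says little about neutrophils. The naive within-tumour segment at the top has a fibroblast sum of 0.

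The genes that act with Apoe exceeded the limit in fewer segments than Apoe itself. Over the panel 25.5% of targets were above the limit in at least 10% of segments. Of its 13 receptors and binding partners 6 were, of 10 efflux and lipidation genes 7, and of 13 LXR receptors and targets 10. Lrp1, an endocytic receptor, exceeded the limit in 9 segments, and Trem2, a lipid-sensing receptor of macrophages, in 13. Abca1, the pump that loads lipid onto Apoe, and Pltp, a phospholipid transfer protein, exceeded it in 24 each. The summed share of the efflux list had an r of 0.398 with Apoe, the LXR list 0.388, the receptors 0.161 and the sterol synthesis list 0.136.

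Among single members, Abca1, which is on the efflux and the LXR list, had an r of 0.426 and ranked 54 of 765, Pltp, on both lists too, 0.357 and 69, Rxrb, a partner of LXR, 0.175 and 159, and Npc2, a lysosomal cholesterol carrier, 0.120 and 207. Of the lipid-laden macrophage list, besides Ctss and Psap, Ctsd, an aspartic protease of lysosomes, had 0.630, Ctsl, a cysteine protease, 0.569, and Grn, the lysosomal progranulin, 0.564. Fabp5, a fatty acid-binding protein that keratinocytes also make, had 0.112. The summed share of this list, 21 genes of which 20 were tested, had an r of 0.744, which was 0.728 with class means removed and 0.543 without the naive slide.

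Between naive interface and stroma, the contrast of the choice, 16 of 20 tested lipid-laden macrophage genes, 8 of 10 macrophage markers, 9 of 9 fibroblast markers, 5 of 10 LXR genes, 3 of 6 receptors, 2 of 7 efflux genes, 1 of 5 other apolipoproteins and 0 of 5 sterol synthesis genes were called lower, against 10.5% of all targets, and none was called higher. Some members passed the 10% filter mainly through naive stroma, such as Lrp1, with 5 of its 9 segments above the limit there. The filter thus favours calls in this direction, and these counts are a description. The fitted median was -1.09 for the lipid-laden macrophage list and -1.72 for the fibroblast list, against -0.15 for all targets. Between relapse interface and stroma no member of any list was called; the medians were -0.08 for both lists and 0.04 for all targets. Between acute and relapse stroma, where 1.53% of all targets were called and 0.885% were called lower, no member of the lipid lists was called. There 4 of 8 tested keratinocyte genes were called lower in acute, namely Krt6a (-2.21), Krt16 (-2.12), Krt14 (-1.76) and Krt5 (-1.46). So was Lep (-0.81), the adipocyte hormone leptin (limma adjusted p from 0.00128 to 0.037 over these genes). Lep lay near the floor, above the limit in 0 acute and 3 relapse stroma segments, with median shares of 0.090 and 0. A floor count has a larger deposited value in shallow segments, so a change in Lep cannot be told apart from depth.

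The neighbours of Apoe on chromosome 7 did not share its level. Apoc1, Apoc4 and Apoc2, which encode small apolipoproteins of the same cluster, exceeded the limit in 11, 8 and 9 segments and reached at most 14, 10 and 10 counts. Tomm40, a subunit of the mitochondrial import pore whose gene lies next to that of Apoe, did so in 13 segments with at most 17 counts. Clptm1 did so in 3 and Nectin2, a cell adhesion receptor, in 4. Their medians in naive stroma were 0 to 0.231 per 10000. Tomm40 was above the limit in 8 of 13 naive interface and 1 of 15 naive stroma segments, where Apoe was above it in 4 and 15.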

How the data were processed

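The authors deposited a matrix of normalised signal and an annotation of 89 segments. The submitters' processing notes name mm10 and Seurat; the sources used here name no aligner or counter. Each segment's scaling factor, a ratio deposited by the authors, was multiplied back: signal times factor was whole within 1e-06 for 99.986% of values (3 targets not whole; the negative-probe target left out), with a smallest count of 1. The sources used here do not say what set this floor. The deposited negative-probe signal entered the limit of quantitation. Nuclei counts and region positions, a score in slide units, were deposited in the authors' annotation.

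Tests used limma 3.58.1 (lmFit, eBayes with trend) in R 4.3.3 on log2(signal + 1), Benjamini-Hochberg over 5087 targets at 0.05, and permutation tests (SciPy 1.17.1; exact, or 100000 permutations). In all 10 contrasts were fitted, 4 of them tested for Apoe, and 3 were also tested by permutation. The statistics were tested on simulated data. In these, limma missed its first recovery criterion for a moderate (4-fold) change at the relapse interface, and the fit was kept. The criterion was then set on larger changes and only on targets with higher mean counts, where it was met. Named are Apoe, the 10 highest and 5 lowest targets by r, its neighbours, and list members by pooled share (at most 6 a list) or call. Apoe and the lists were chosen with earlier results of these data known. Nectin2, Ly6g, Elane, Ltf and Camp were named after their values were seen. Values of 1 receptor are not reported here.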

Additional observations from a re-analysis of the deposited data

How the results depend on the processing

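Apoe in relapse, interface minus stroma, kept its sign in 11 of 12 alternatives (fitted log2 -0.72 to -0.20) and turned to 0.14 without relapse group 3; it passed the threshold in none (adjusted p 0.935 to 1). The acute interface difference stayed positive (0.38 to 2.23; adjusted p 0.428 to 1 over 16 alternatives), as did acute minus relapse stroma (0.10 to 1.85; adjusted p 0.0534 to 1 over 17), lowest in p without relapse group 3. The smallest of these differences, 0.38 and 0.10, came from thinned counts, whose log2 scale is not that of deposited values. Relapse interface calls went from 0 to 1 when scaled to the same total and without relapse group 5. The 78 calls of acute against relapse stroma became 2597 with no filter (99 higher), 50 with depth as a covariate (6 higher), 17 thinned to 1000 counts, 41 with position group as a random block and 148 on plate H. They were 302, 45, 32 and 16 without acute groups 1, 3, 4 and 5, and 24 and 6 without relapse groups 2 and 4. The cause was not tested. Scaled by deposited value or by recovered count, 3 and 4 of 7 classes kept their place. Of the 10 targets most like Apoe, 7 to 10 stayed in 7 alternatives. Position groups and the alternatives built on them were added after seeing the data. The 2 planned count tests were not run, since the values did not meet the criterion for recovered reads. Segments carry no replicate numbers to pair them, and position group served as the block. Depth limits the relapse classes most.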
